A study of Mus musculus with 27 samples.

Results

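The 8 genes described here serve the uptake of ammonia or glutamate in the liver lobule, or the making and use of glutamine and glutamate: Glul, Slc1a2, Oat, Rhbg, Gls2, Glud1, Gpt and Got1. They were chosen by symbol, with earlier results of these data known. All 8 were found among the 21823 genes of the table, and all 8 were among the 12952 genes that reached at least 1 FPKM in at least 3 libraries. FPKM (fragments per kilobase of transcript, scaled to the mapped fragments of the library) is a level per transcript length, so that FPKM of different genes can be set side by side. The study asked how gene expression is zoned in the maternal liver. Pieces of liver were cut out with a laser from zone 1 (around the portal vein), zone 2 (the middle of the lobule) and zone 3 (around the central vein). The mice were wild-type C57BL/6 females (C57BL/6N in the study's methods) that were not pregnant (NP) or were pregnant at day 8 (dpc8) or day 16 (dpc16) post coitum, and they carried no transgene according to the labels. Each of the 9 groups of stage and zone had 3 libraries, 27 in all. Whether libraries came from separate mice is not given in the labels, so that p-values here measure the spread between these samples.

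As background, blood flows through the lobule from the portal to the central vein, and hepatocytes along this path handle nitrogen in opposite ways. Periportal hepatocytes hydrolyse glutamine with liver glutaminase and pass the ammonia to the urea cycle, a system of high capacity. A narrow layer of hepatocytes at the central vein takes up glutamate and ammonium and joins them into glutamine with glutamine synthetase, which catches the ammonia that escaped. Glutamate dehydrogenase and the transaminases lie between both ends, since they move nitrogen on and off glutamate.

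The zones could be told apart by marker genes outside the set. The sum of 6 pericentral markers (Cyp2e1, Cyp1a2, Lhpp, Axin2, Tbx3 and Lgr5) was 4736 to 12870 FPKM in zone 3, 783 to 5173 FPKM in zone 2 and 85.9 to 381 FPKM in zone 1. The sum of 6 periportal markers (Cyp2f2, Sds, Hal, Aldh1b1, Hsd17b6 and Cyp17a1) was 1359 to 4297 FPKM in zone 1, 354 to 1843 FPKM in zone 2 and 10.9 to 70.2 FPKM in zone 3. In 6 libraries 4 Y-linked genes summed to 7.92 to 23.2 FPKM although the mice are labelled female, and the mean log2 level of 10 connective tissue and smooth muscle markers was 5.21 to 6.56 there against 1.59 to 4.33 in the 21 other libraries. Among NP libraries these were replicate 1 of zone 1 and replicate 2 of zone 3, at dpc8 replicate 1 of zone 1 and replicate 2 of zone 2, and at dpc16 replicate 3 of both zone 2 and zone 3. Their part in the results was not tested beyond the values without them that are given below. Summed markers of biliary epithelium, the lining of the bile ducts beside the portal vein, were 40.2 to 158.5 FPKM in zone 1, 2.34 to 116 FPKM in zone 2 and 0.0884 to 91.6 FPKM in zone 3. Those of hepatocytes ran from 30760 to 221100 FPKM, of endothelium from 31.5 to 102.9 FPKM and of Kupffer cells from 24.2 to 291 FPKM over the 27 libraries. Tissue pieces hold many cells, and fewer cells of a type cannot be told apart from less RNA per cell.

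For 4 of the 8 genes, zone 3 held most of the FPKM summed over zone means, each zone counted equally, at every stage. Glul, Slc1a2, Oat and Rhbg had 85.7% to 97.3% of this sum in zone 3, whereas Glud1 had 36.1% to 44.4% and Gls2 had 1.20% to 3.92% there. Zone 1 against zone 3, with a difference called at an adjusted p under 0.05 by limma on log2(FPKM + 1), gave 5 of 8 genes in NP and dpc8 mice and 6 of 8 at dpc16. Of all genes tested, 1.34% (NP), 1.61% (dpc8) and 1.55% (dpc16) were called in the same comparisons. Glud1 and Gpt were not called at any stage. The values of both zones did not overlap for 12.7% (NP), 23.2% (dpc8) and 14.7% (dpc16) of all genes. The 15 calls of Glul, Slc1a2, Oat, Rhbg and Gls2 held under all 10 other settings and in each of 6 fits with 1 library of the compared groups left out. In TPM, that is, with each library rescaled to the same sum, the median difference of all genes between zones 1 and 3 moved from 0.08 to 0.19 at dpc8 and from -0.02 to -0.29 at dpc16.

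**Figure D1:**
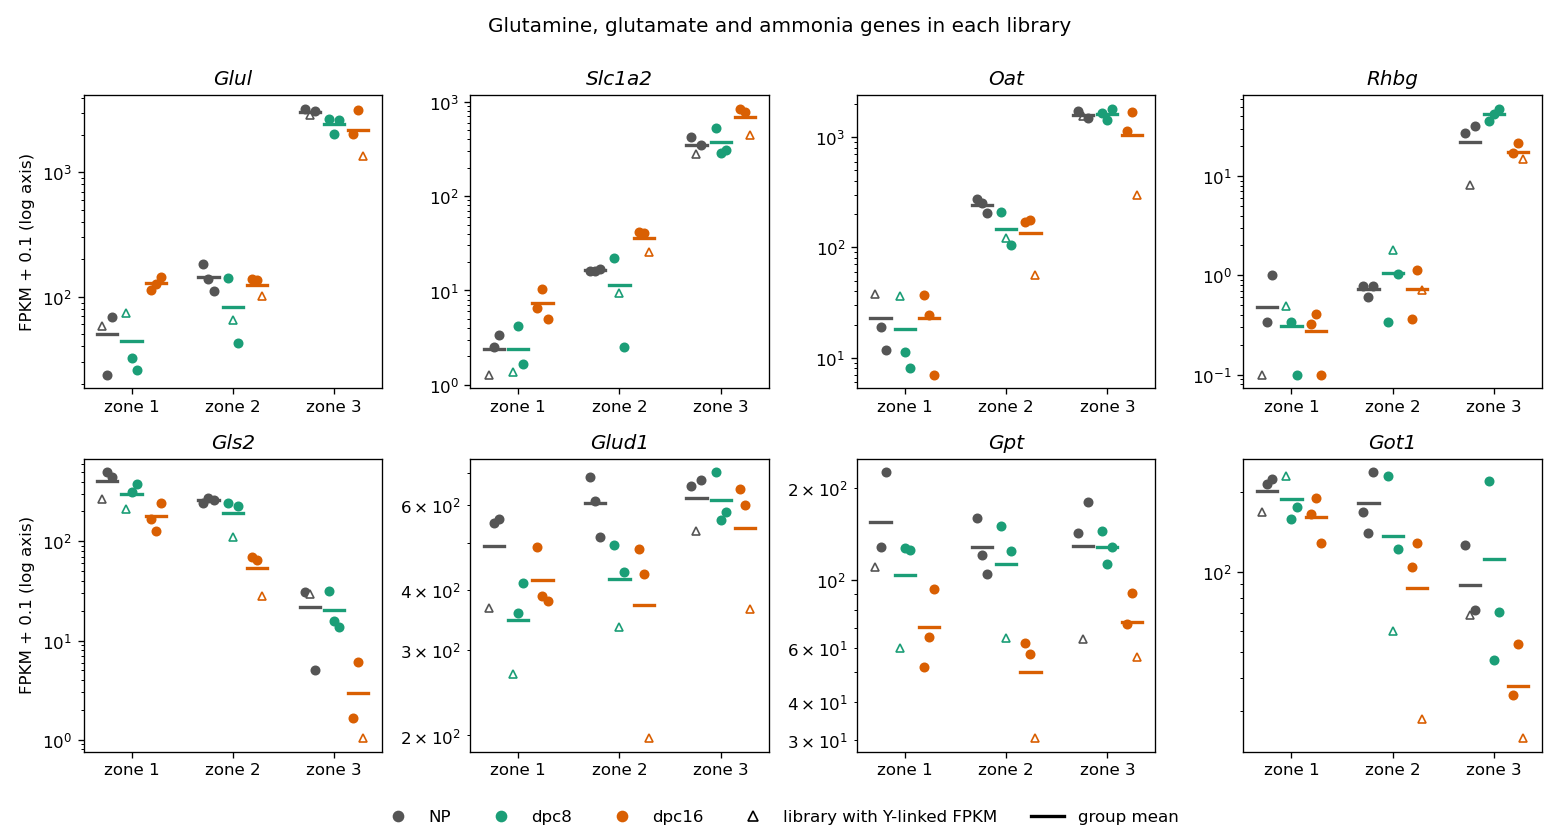
FPKM + 0.1 of each gene on a log axis by zone (horizontal axis) and stage (colour). Points are libraries, open triangles are the 6 libraries with Y-linked FPKM and lines are means of 3 libraries. Glul, Slc1a2, Oat and Rhbg rise to zone 3, where the Glul means lie between 2180 and 3082 FPKM, Gls2 falls to means of 2.83 to 21.6 FPKM, and Glud1 and Gpt overlap between zones in most stages.

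Glul encodes glutamine synthetase, the enzyme that adds ammonium to glutamate. The gene lies on mm10 chr1:153899944-153909723, plus strand. In zone 3 its FPKM was 3264, 2890 and 3092 in NP, 2697, 2042 and 2621 at dpc8 and 2039, 3152 and 1349 at dpc16. In zone 1 it was 58.05, 23.6 and 69.0 in NP, 74.4, 32.0 and 25.6 at dpc8 and 113, 127 and 145 at dpc16. The ranges of both zones lay far apart at every stage, and the mean of zone 3 exceeded that of zone 1 by 61.4-fold in NP, 55.7-fold at dpc8 and 17.0-fold at dpc16. The fitted difference, zone 1 minus zone 3 on the log2(FPKM + 1) scale, was -6.04 ± 0.43 (SE, n = 3 against 3, adjusted p = 4.314e-09, limma) in NP, -5.91 ± 0.43 (adjusted p = 7.475e-09, limma) at dpc8 and -4.0 ± 0.43 (adjusted p = 2.161e-06, limma) at dpc16.

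Slc1a2 encodes a glutamate transporter of the plasma membrane (GLT-1, also EAAT2), which brings the substrate of glutamine synthetase into the cell. The gene lies on mm10 chr2:102658659-102790784, plus strand. In zone 3 its FPKM was 427, 280 and 349 in NP, 530.0, 288 and 310 at dpc8 and 848, 784 and 447 at dpc16. Zone 2 held 16.02 to 16.6 FPKM in NP, 2.45 to 21.9 FPKM at dpc8 and 25.5 to 41.5 FPKM at dpc16, and in zone 1 the values ran from 1.183 to 10.2 FPKM over all stages. The 3 zones did not overlap in NP or at dpc16. Zone 1 was lower than zone 3 by -6.77 ± 0.48 (SE) in NP, -6.87 ± 0.48 at dpc8 and -6.40 ± 0.48 at dpc16 on the log2(FPKM + 1) scale, with a highest adjusted p of 9.314e-09 (limma).

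Rhbg encodes an ammonium transporter of the Rhesus family in the plasma membrane. The gene lies on mm10 chr3:88242874-88254709, minus strand. In zone 3 its FPKM was 26.8, 8.04 and 31.6 in NP, 36.0, 42.0 and 47.7 at dpc8 and 16.7, 21.1 and 14.6 at dpc16. Elsewhere its level was low: 3 of 9 zone 1 libraries listed it at 0, the 6 others held 0.221 to 0.897 FPKM, and zone 2 held 0.238 to 1.69 FPKM. One read on its 1937-base transcript was worth 0.0176 to 0.0777 FPKM at the depths estimated from the values. Zone 1 was lower than zone 3 by -3.92 ± 0.38 (SE, adjusted p = 5.663e-07, limma) in NP, -5.15 ± 0.38 (adjusted p = 7.475e-09, limma) at dpc8 and -3.97 ± 0.38 (adjusted p = 3.414e-07, limma) at dpc16. The constant of 1 added before the logarithm compresses these differences: with 0.1 the largest of them, at dpc8, was -7.35. The lowest NP value in zone 3, 8.04 FPKM, belonged to a library with Y-linked FPKM, and without it the NP difference was -4.50.

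Oat encodes ornithine aminotransferase, a mitochondrial enzyme that turns ornithine into glutamate semialdehyde and so can feed glutamate to glutamine synthetase. The gene lies on mm10 chr7:132557478-132576398, minus strand. In zone 3 its FPKM was 1736, 1559 and 1498 in NP, 1653, 1435 and 1816 at dpc8 and 1126, 1675 and 300.1 at dpc16. In zone 2 it was 277, 251 and 206 in NP, 209, 122 and 105 at dpc8 and 171, 178 and 56.5 at dpc16. Zone 1 ran from 6.92 to 37.6 FPKM over the stages. The levels of Oat stepped down over the 3 zones, none of which overlapped with its neighbour at any stage. Zone 1 was lower than zone 3 by -6.23 ± 0.62 (SE) in NP, -6.68 ± 0.62 at dpc8 and -5.40 ± 0.62 at dpc16, with a highest adjusted p of 5.426e-06 (limma). The low dpc16 values of replicate 3 in zones 2 and 3 are from libraries with Y-linked FPKM, and without these libraries the dpc16 difference was -6.13.

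The RefSeq stretches of 250 bases before the start of transcription are shown for Glul, Slc1a2 and Oat, the zone 3 genes of the set for which the promoter table (GRCm38.p6) has an entry, because the 3 genes moved together over the libraries. Capitals mark CTTTGA, the core of the site bound by TCF and LEF factors, on either strand (TCAAAG when read on the opposite strand). The Glul stretch is chr1:153899679-153899928 on the plus strand, the Slc1a2 stretch is chr2:102706188-102706437 on the plus strand, and the Oat stretch is chr7:132576399-132576648 on the minus strand.
Glul: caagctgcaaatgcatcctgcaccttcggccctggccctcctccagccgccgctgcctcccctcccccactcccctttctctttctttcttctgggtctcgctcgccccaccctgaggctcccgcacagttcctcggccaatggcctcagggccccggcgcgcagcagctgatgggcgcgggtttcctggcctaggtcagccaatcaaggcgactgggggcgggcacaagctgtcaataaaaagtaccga
Slc1a2: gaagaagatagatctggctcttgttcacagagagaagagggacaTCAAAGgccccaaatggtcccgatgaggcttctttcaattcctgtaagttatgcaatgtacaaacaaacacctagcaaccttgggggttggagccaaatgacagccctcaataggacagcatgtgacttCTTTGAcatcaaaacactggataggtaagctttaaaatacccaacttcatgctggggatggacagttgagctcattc
Oat: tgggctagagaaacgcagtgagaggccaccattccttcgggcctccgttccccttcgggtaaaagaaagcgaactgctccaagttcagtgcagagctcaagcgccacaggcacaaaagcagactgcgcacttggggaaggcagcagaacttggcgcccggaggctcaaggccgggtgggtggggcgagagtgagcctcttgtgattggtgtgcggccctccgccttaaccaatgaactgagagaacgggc
The Slc1a2 stretch starts within the gene, since it ends at a RefSeq start 47779 bases downstream of the GENCODE gene start. It holds CTTTGA starting 77 bases before the start on the same strand and 206 bases before it on the opposite strand. Glul and Oat hold no match, and neither do Glud1 and Got1, the 2 other genes of the set with an entry. In windows of 250 bases before to 50 bases after the start, 16% of 32851 promoters hold CTTTGA on either strand. The letters CAAAGTCCA (HNF4, in 0.475% of promoters), TTGCGCAA (C/EBP, 0.183%) and AGAACA (glucocorticoid receptor, 19.0%) were not in the windows of the 5 genes on either strand. The same held for the letters of the TATA box, TATAAA, which 13.6% of promoters hold. The window of Slc1a2 had 45.7% G and C, against 64.3% for Glul, 61.7% for Oat and a median of 52.7% over all promoters.

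Gls2 encodes liver-type glutaminase, which releases ammonia from glutamine in mitochondria. The gene lies on mm10 chr10:128194457-128210004, plus strand. In zone 1 its FPKM was 269.5, 499 and 441 in NP, 209.9, 312 and 379 at dpc8 and 169.7, 127 and 241 at dpc16. In zone 3 it was 30.8, 29.1 and 4.94 in NP, 31.1, 15.8 and 13.6 at dpc8 and 1.54, 6.03 and 0.935 at dpc16. It was the only 1 of the 8 genes called higher in zone 1 at all 3 stages. Zone 1 exceeded zone 3 by 4.45 ± 0.55 (SE, adjusted p = 1.967e-05, limma) in NP, 3.88 ± 0.55 (adjusted p = 0.0001507, limma) at dpc8 and 5.74 ± 0.55 (adjusted p = 4.32e-07, limma) at dpc16 on the log2(FPKM + 1) scale. NP zone 3 replicate 3 was far below both other libraries of its group, and without it the NP difference was 3.66.

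Got1 encodes the cytosolic aspartate aminotransferase, which yields aspartate, the donor of the second nitrogen of urea. The gene lies on mm10 chr19:43499752-43524605, minus strand. In NP its FPKM was 169, 214 and 225 in zone 1 and 127, 68.9 and 72.2 in zone 3. At dpc8 it was 231, 159 and 176 in zone 1 and 221, 46.5 and 70.6 in zone 3, so that the zones overlapped. At dpc16 zone 1 held 165, 191 and 128 and zone 3 held 34.3, 53.7 and 23.6, without overlap. Zone 1 minus zone 3 was 1.22 ± 0.54 (SE, adjusted p = 0.546, limma) in NP, 1.04 ± 0.54 (adjusted p = 0.451, limma) at dpc8 (1.68 without zone 3 replicate 1 and 0.57 without zone 3 replicate 2) and 2.15 ± 0.54 (adjusted p = 0.045, limma) at dpc16. The dpc16 call was lost without zone 1 replicate 1, 2 or 3 or zone 3 replicate 1 or 3 (log2 differences of 1.87 to 2.30, adjusted p of 0.0845 to 0.234), and without the filter on low values (adjusted p = 0.0705).

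Glud1 encodes mitochondrial glutamate dehydrogenase, and Gpt the cytosolic alanine aminotransferase that is measured in blood as a sign of liver injury. They lie on mm10 chr14:34310727-34345265 and chr15:76695716-76699686, both on the plus strand. Glud1 was high in every group, with means of 346 to 621 FPKM. Its zone 1 minus zone 3 difference was -0.35 ± 0.30 (SE) in NP and -0.32 ± 0.30 at dpc16. With 1 library left out it ran from -0.46 to -0.15 in NP and from -0.58 to -0.165 at dpc16. At dpc8 it was -0.84 ± 0.30 (adjusted p = 0.228, limma), with 268, 358 and 413 FPKM in zone 1 below 702, 559.7 and 579 FPKM in zone 3. This Glud1 difference was called under 3 of 10 other settings: array weights (adjusted p = 0.0213), TPM (adjusted p = 0.0305) and without libraries that hold Y-linked FPKM (adjusted p = 0.0342). Gpt had group means of 50.05 to 155 FPKM, and its difference was 0.32 ± 0.40 in NP (95% interval -0.52 to 1.15), -0.37 ± 0.40 at dpc8 (-1.21 to 0.47) and -0.07 ± 0.40 at dpc16 (-0.90 to 0.77). These intervals do not show equal levels. With 1 library left out the dpc8 difference of Gpt ran from -0.55 to -0.02.

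**Figure D2:**
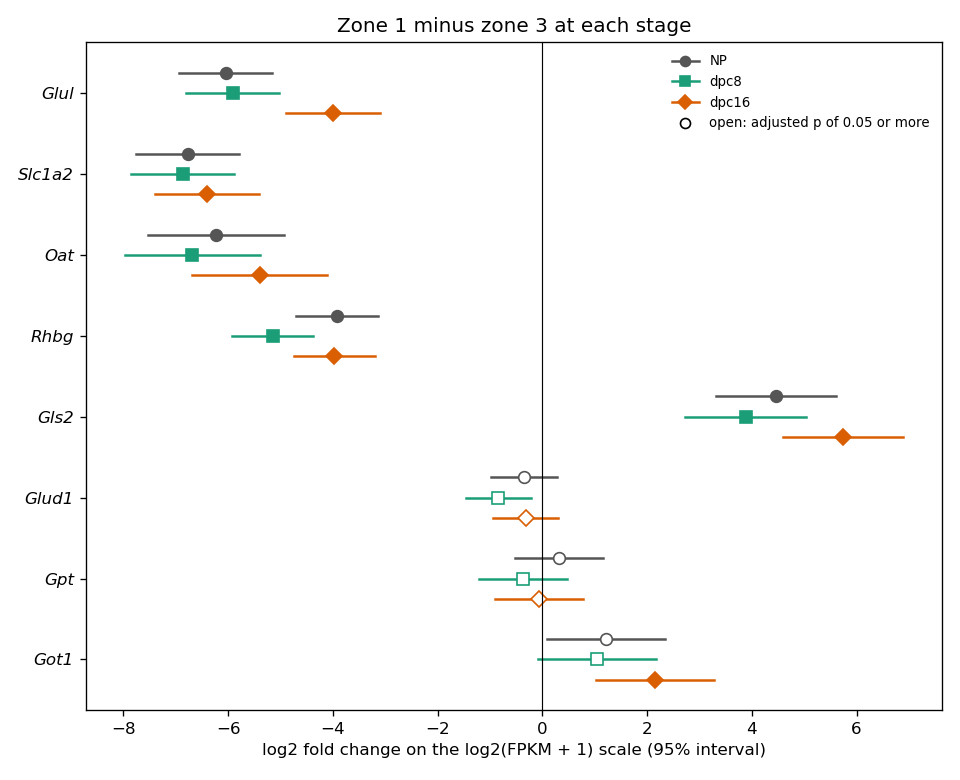
Fitted zone 1 minus zone 3 differences of each gene (vertical axis) on the log2(FPKM + 1) scale with 95% intervals (horizontal axis), one symbol per stage, filled where the adjusted p was under 0.05. Glul, Slc1a2, Oat and Rhbg lie between -6.87 and -3.92, Gls2 between 3.88 and 5.74, and the intervals of Gpt include 0.

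Zone 2 was set against both neighbours to see where along the lobule the levels part. Zone 2 against zone 3 called 4 of 8 genes in NP (0.401% of all genes), 5 at dpc8 (0.347%) and 5 at dpc16 (0.517%). Of all genes, 11.7%, 13.9% and 7.13% did not overlap between these zones in NP, dpc8 and dpc16. Glul in zone 2 was 184, 139.7 and 110.5 FPKM in NP, 141, 64.6 and 42.2 at dpc8 and 138, 136 and 100.5 at dpc16. It lay below zone 3 by -4.43 ± 0.43 (SE), -5.04 ± 0.43 and -4.04 ± 0.43 in NP, dpc8 and dpc16, all called. Slc1a2 (-4.34, -5.28 and -4.22, SE 0.48) and Rhbg (-3.64, -4.52 and -3.51, SE 0.38) were also called lower in zone 2 than in zone 3 at each stage. Gls2 in zone 2 was 245, 274 and 261 FPKM in NP, 244, 112 and 228 at dpc8 and 69.3, 65.4 and 28.1 at dpc16, and it exceeded zone 3 by 3.87, 3.22 and 3.98 (SE 0.55), all called. Oat differed by -2.71 ± 0.62 in NP (adjusted p = 0.062, limma), -3.54 ± 0.62 at dpc8 (adjusted p = 0.00587, limma) and -2.78 ± 0.62 at dpc16 (adjusted p = 0.0426, limma). Calls at dpc8 of Oat (adjusted p = 0.0526, log2 difference -3.46) and Gls2 (0.0533, 2.99) were lost without zone 3 replicate 3. At dpc16 the Oat call was lost without zone 2 replicate 1, 2 or 3 or zone 3 replicate 1 or 2 (-3.06 to -2.24, adjusted p of 0.0793 to 0.383), and with a constant of 0.1 (adjusted p = 0.0538) or no filter (adjusted p = 0.0731). Fits of only the groups compared lost the calls of Gls2 in NP (adjusted p = 0.0843) and at dpc16 (0.184) and of Glul (0.0591) and Oat (0.90) at dpc16. Oat in NP was called under 8 of 10 other settings.

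Zone 1 against zone 2 called fewer of the genes. These were 2 of 8 in NP (0.154% of all genes), 1 of 8 at dpc8 (0.124%) and 0 of 8 at dpc16 (0.139%). At dpc16 4 of 8 had an unadjusted p under 0.05. The shares of all genes called refer to adjusted p, here and below, and none was computed for an unadjusted p. Of all genes, 10.1%, 7.44% and 8.85% did not overlap between these zones at the 3 stages. Slc1a2 was lower in zone 1 by -2.44 ± 0.48 (SE, adjusted p = 0.0316, limma) in NP. Oat was lower in zone 1 by -3.52 ± 0.62 (adjusted p = 0.0108, limma) in NP and -3.14 ± 0.62 (adjusted p = 0.043, limma) at dpc8. Each of these calls was lost without certain single libraries. For Slc1a2 these were NP zone 1 replicates 1 and 2 and zone 2 replicates 1, 2 and 3 (-2.49 to -2.16, adjusted p of 0.0707 to 0.204). For Oat in NP they were zone 1 replicates 2 and 3 and zone 2 replicates 1 and 2 (-3.50 to -3.14, adjusted p of 0.051 to 0.0967), and at dpc8 zone 1 replicates 2 and 3 and zone 2 replicates 1, 2 and 3 (-3.34 to -2.73, adjusted p of 0.104 to 0.369). Fits of only the groups compared lost all 3 calls, no filter lost that of Oat at dpc8, and leaving out libraries with Y-linked FPKM lost that of Slc1a2. Conversely, Slc1a2 at dpc8 differed by -1.59 (adjusted p = 0.631) and was called at -2.31 (adjusted p = 0.0282) without zone 2 replicate 3, which held 2.45 FPKM against 21.9 and 9.26 in the others of its group.

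At dpc16 the libraries of different zones with the same replicate number deviated together, and fits with the replicate number as a block are given beside the plain ones. As a term, the block held an effect of the replicate number shared by all stages, which does not model a pairing within dpc16 alone. The estimated correlation used blocks of stage and replicate number. Slc1a2 differed between zones 1 and 2 by -2.19 (adjusted p = 0.0689, limma), with an adjusted p of 0.05945 with the block as a term and 0.0228 with an estimated correlation. Oat differed by -2.62 (adjusted p = 0.139, limma), with an adjusted p of 0.0132 with the block as a term and 0.0212 with an estimated correlation. The block was not alone in this: of all 10 other settings, 4 called Slc1a2 and 5 called Oat, array weights and TPM among them for both. Glul differed between both zones at dpc16 by less than the spread between replicates, 128 ± 16.2 FPKM (SD, n = 3) in zone 1 and 125 ± 21.2 FPKM in zone 2. In NP zone 1 lay below zone 2 without overlap (50.2 ± 23.7 against 145 ± 37.2 FPKM, log2 difference -1.61, adjusted p = 0.221, limma). Whether this zone difference changed between stages was not tested.

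The dpc8 libraries were compared with NP within each zone, and 0 of 8 genes were called in zones 1, 2 and 3, where 0.0309%, 0.00772% and 0.0154% of all genes were called by limma, and 2 of 24 member tests had an unadjusted p under 0.05. One was Rhbg in zone 3, where all 3 dpc8 libraries (36.0 to 47.7 FPKM) lay above all 3 NP libraries (8.04 to 31.6 FPKM). In zone 3, 9.81% of all genes did not overlap between dpc8 and NP. Its difference of 1.08 ± 0.38 (SE, adjusted p = 1, limma) dropped to 0.50 without NP zone 3 replicate 2. The other was Glul in zone 2, with a difference of -0.95 ± 0.43 (adjusted p = 0.971, limma) and overlapping groups. With 1 library left out this difference ran from -1.42 to -0.56. In zone 3 all 3 dpc8 values of Glul (2042 to 2697 FPKM) were below all 3 NP values (2890 to 3264 FPKM), a difference of -0.34 ± 0.43. In zone 2, where 10% of all genes did not overlap, Gls2 (-0.49 ± 0.55) and Glud1 (-0.53 ± 0.30) were below NP without overlap, for Gls2 only just (at most 244.3 against at least 244.6 FPKM). Without dpc8 zone 2 replicate 2 the difference of Gls2 was -0.14.

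At dpc16 Gls2 was called lower than in NP in zones 2 and 3, the 2 calls among the 8 genes. Of all genes, 1.37%, 2.66% and 1.32% were called between dpc16 and NP in zones 1, 2 and 3. In zone 2 Gls2 went from 260.0 ± 14.7 FPKM (SD, n = 3) to 54.3 ± 22.7 FPKM without overlap, a difference of -2.34 ± 0.55 (SE, adjusted p = 0.0202, limma). In zone 3 it went from 21.6 ± 14.5 to 2.83 ± 2.78 FPKM, a difference of -2.46 ± 0.55 (adjusted p = 0.0229, limma), and 1 NP library (4.94 FPKM) lay within the dpc16 range of 0.935 to 6.03 FPKM. In zone 1 the dpc16 libraries were also all below NP (127 to 241 against 270 to 499 FPKM), with a difference of -1.17 ± 0.55 (adjusted p = 0.442, limma). Both calls were lost without the 6 libraries with Y-linked FPKM, at -1.93 (adjusted p = 0.0504) in zone 2 and -1.70 (adjusted p = 0.137) in zone 3, and in fits of the compared groups alone (adjusted p of 0.108 and 0.312). They were also lost without 1 of NP zone 2 replicates 1 to 3 or dpc16 zone 2 replicate 3 (-2.38 to -1.93, adjusted p of 0.0518 to 0.104), and without NP zone 3 replicate 1 or 2 or dpc16 zone 3 replicate 1 or 3 (-2.28 to -2.04, adjusted p of 0.105 to 0.148).

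Slc1a2 had values at dpc16 that lay above those in NP in every library of each zone, yet it was not called. The dpc16 minus NP difference was 1.31 ± 0.48 (SE, adjusted p = 0.242, limma) in zone 1, 1.06 ± 0.48 (adjusted p = 0.261, limma) in zone 2 and 0.94 ± 0.48 (adjusted p = 0.474, limma) in zone 3. Of all genes, 9.42%, 7.77% and 7.84% had all dpc16 values above all NP values in these zones. Glul in zone 1 lay above NP in all 3 libraries (113 to 145 against 23.6 to 69.0 FPKM), with a difference of 1.46 ± 0.43 (adjusted p = 0.107, limma) and, when libraries with Y-linked FPKM were left out, of 1.63 (adjusted p = 0.0497). In zone 3 the difference of Glul was -0.58 ± 0.43 and the groups overlapped. With 1 library left out it ran from -0.89 to -0.28, and the lowest dpc16 value (1349 FPKM) is from a library with Y-linked FPKM. The differences of Oat and Rhbg ran from -1.01 to -0.01 over the 3 zones, and Oat in zone 2 was lower without overlap. The lowest dpc16 values of Oat, 56.5 FPKM in zone 2 and 300.1 FPKM in zone 3, are from libraries with Y-linked FPKM. Without these libraries the dpc16 mean of Oat was 174.5 instead of 135 FPKM in zone 2 and 1401 instead of 1034 FPKM in zone 3.

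Gpt and Got1 had lower mean levels at dpc16 than in NP in all 3 zones, without a call. Of all genes, 8.01%, 9.59% and 8.87% had all dpc16 values below all NP values in zones 1, 2 and 3. Gpt in zone 2 was 62.5, 57.3 and 30.4 FPKM against 160.4, 121 and 105 FPKM in NP, a difference of -1.39 ± 0.40 (SE, adjusted p = 0.0677, limma). Its difference was -1.11 ± 0.40 (adjusted p = 0.243, limma) in zone 1 without overlap and -0.72 ± 0.40 (adjusted p = 0.54, limma) in zone 3. With 1 library left out the zone 3 difference ran from -1.16 to -0.42. The Gpt difference was called lower in zone 2 under 5 of 10 other settings and in zone 1 under 4 of 10. Among these were array weights, TPM, the connective tissue covariate and the fit that left out libraries with Y-linked FPKM (-1.07, adjusted p = 0.0277 in zone 2 and -1.31, adjusted p = 0.00996 in zone 1). Got1 was lower without overlap in zone 2 (-1.29 ± 0.54, adjusted p = 0.226, limma) and zone 3 (-1.26 ± 0.54, adjusted p = 0.348, limma). Glud1 in zone 2 differed by -0.79 ± 0.30 (adjusted p = 0.173, limma), also without overlap, and dpc16 zone 2 replicate 3, with Y-linked FPKM, had the lowest value (197 FPKM against 432 and 486). Glud1 in zone 2 was called lower under 3 of 10 other settings, and Got1 in zone 2 under 1 of 10. Without that library the zone 2 differences were -0.39 for Glud1 and -0.61 for Got1, whose lowest value (27.8 FPKM against 105 and 128) was from it too.

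**Figure D3:**
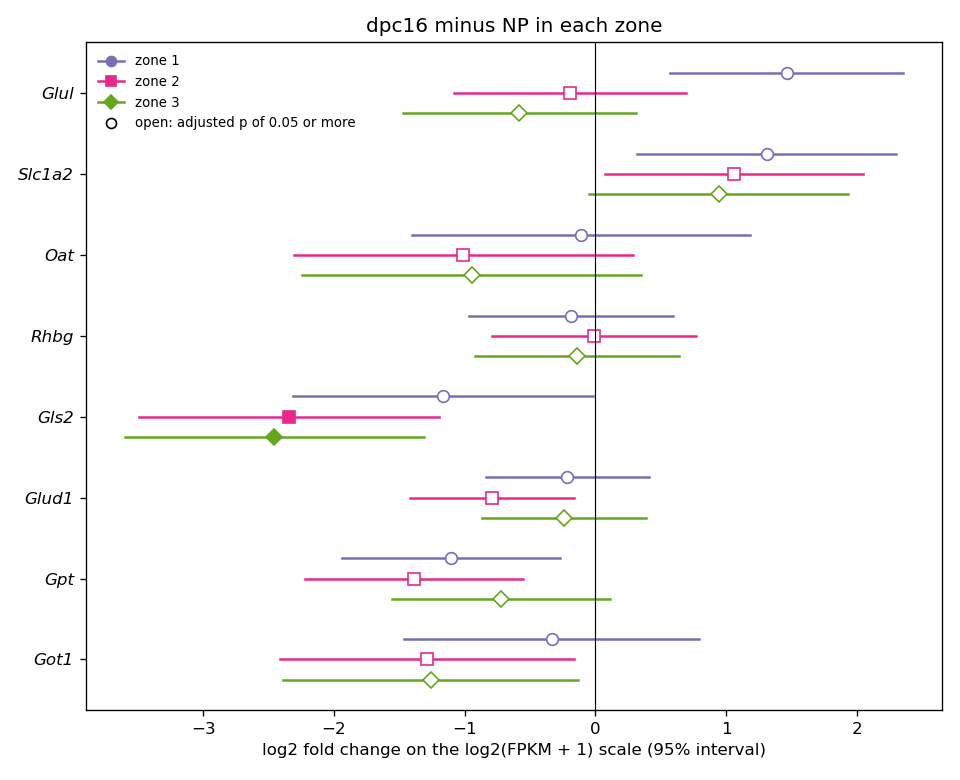
Fitted dpc16 minus NP differences of each gene (vertical axis) on the log2(FPKM + 1) scale with 95% intervals (horizontal axis), one symbol per zone, filled where the adjusted p was under 0.05. The 2 filled symbols are Gls2 in zone 2 (-2.34) and zone 3 (-2.46), and the 3 symbols of Slc1a2 lie between 0.94 and 1.31.

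The comparisons of dpc16 with NP and of dpc8 with NP share the NP libraries. The scale of FPKM touches these stage differences. Alb alone took 7.98% to 21.0% of the FPKM sum at dpc16 and 3.71% to 12.0% in NP, and rescaling each library to the same sum (TPM) moved the median dpc16 minus NP difference over all genes to -0.57 in zone 1, -0.195 in zone 2 and -0.21 in zone 3. Under that scaling 8 member tests were called lower at dpc16 and 0 higher, and the share of all genes called under it was not computed. Slc1a2 stayed above 0, at 0.89, 0.79 and 0.67 in zones 1, 2 and 3, and Glul in zone 1 at 0.86. Gls2 was at -1.78, -2.64 and -2.85, called in each zone and further down than the median of all genes.

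From dpc8 to dpc16, 3 of 24 member tests were called, 1 in each zone, where 2.01%, 1.51% and 1.37% of all genes were called in zones 1, 2 and 3. Glul in zone 1 rose by 1.67 ± 0.43 (SE, adjusted p = 0.0452, limma), from 44.0 ± 26.5 to 128 ± 16.2 FPKM (SD, n = 3) without overlap. Slc1a2 in zone 2 rose by 1.94 ± 0.48 (adjusted p = 0.0391, limma), from 11.2 ± 9.90 to 35.7 ± 8.88 FPKM. Gls2 in zone 3 changed by -2.61 ± 0.55 (adjusted p = 0.0153, limma), from 20.2 ± 9.56 to 2.83 ± 2.78 FPKM. Of the periportal markers, the zone 3 means of Cyp2f2 (16.1 to 2.01 FPKM), Hal (20.2 to 1.88), Sds (3.53 to 0.379) and Aldh1b1 (1.69 to 0.405) also fell. Those of Hsd17b6 (5.27 to 23.5 FPKM) and Cyp17a1 (8.21 to 19.6) rose. The part of periportal tissue in the zone 3 pieces was not tested. Not called were Slc1a2 in zone 1 (1.35, adjusted p = 0.18) and zone 3 (0.88, adjusted p = 0.47), Gls2 in zone 2 (-1.85, adjusted p = 0.107) and Rhbg in zone 3 (-1.22, adjusted p = 0.117), which went from 36.0 to 47.7 FPKM at dpc8 to 14.6 to 21.1 FPKM without overlap. Both of the latter were called under 3 of 10 other settings. Of all genes, 19.9% in zone 1 and 23.3% in zone 3 did not overlap between dpc16 and dpc8. Scaling mattered here. With the deposited FPKM 2 calls were higher and 1 lower, after quantile normalization 1 and 1, and in TPM 1 and 7. In TPM the Glul call was lost (0.97, adjusted p = 0.13, limma). The median of all genes moved there to -0.66, -0.30 and -0.15 in zones 1, 2 and 3.

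Single libraries also carried these calls. The Glul call was lost without dpc16 zone 1 replicate 1, 2 or 3 or dpc8 zone 1 replicate 2 or 3 (1.37 to 1.75, adjusted p of 0.109 to 0.192). For Slc1a2 it was lost without dpc16 zone 2 replicate 1 or 2 or dpc8 zone 2 replicate 2 or 3 (1.23 to 2.01, adjusted p of 0.068 to 0.291), and also with a constant of 0.1 (adjusted p = 0.0538), no filter (0.0599), quantile normalization (0.0503) and only the groups compared (0.554). For Gls2 it was lost without dpc16 zone 3 replicate 1 or 3 or dpc8 zone 3 replicate 1 (-2.43 to -2.24, adjusted p of 0.0802 to 0.0994) and with only the groups compared (0.0817). The Glul call was also lost with no filter and with only the groups compared.

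Whether zone differences changed with pregnancy was tested by 3 interaction terms: zone 1 minus zone 3 at dpc8 and at dpc16, and zone 2 minus zone 3 at dpc16, each minus the same difference in NP. None of the 24 member tests was called by limma, and 2 had an unadjusted p under 0.05; of all genes, 0%, 0.054% and 0.0154% were called in the 3 terms. For Glul the zone 1 minus zone 3 difference was smaller at dpc16 than in NP by 2.05 ± 0.61 (SE, adjusted p = 0.993, limma). For Rhbg it was larger at dpc8 than in NP, with a term of -1.23 ± 0.53 (adjusted p = 1, limma), which was -0.65 without NP zone 3 replicate 2. For Gls2 the zone 1 minus zone 3 term at dpc16 was 1.29 ± 0.78 (adjusted p = 0.993, limma), and it was 2.08 without NP zone 3 replicate 3, 0.43 with array weights and 0.27 when libraries with Y-linked FPKM were left out. Changes of other zone differences, or between dpc8 and dpc16, were not tested.

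The ratio of Glul to Gls2 FPKM sets the level of the glutamine-forming enzyme mRNA against the glutamine-splitting one within each library. In zone 1 it was 0.0473 to 0.215 in NP, 0.0678 to 0.354 at dpc8 and 0.603 to 0.9997 at dpc16. In zone 2 it was 0.423 to 0.754 in NP, 0.185 to 0.579 at dpc8 and 1.99 to 3.58 at dpc16. All 3 dpc16 libraries of zone 2 thus held more Glul than Gls2, while the 6 libraries of zone 2 from NP and dpc8 mice held less. In zone 3 the ratio was 99.2 to 625 in NP, 86.6 to 192 at dpc8 and 523 to 1443 at dpc16, with overlap between NP and dpc16. A ratio within a library does not depend on the scaling of that library, and no test was run on it.

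**Figure D4:**
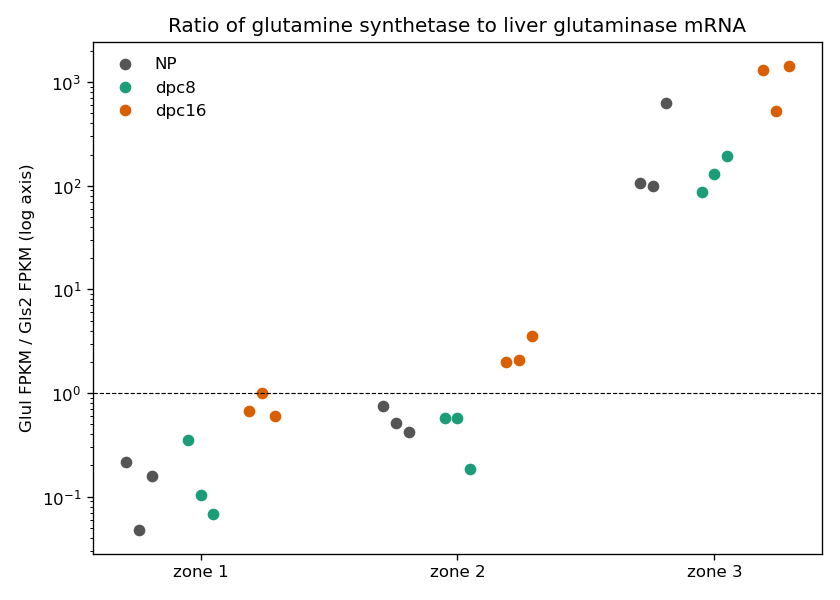
Glul FPKM divided by Gls2 FPKM in each library on a log axis, by zone (horizontal axis) and stage (colour), with a dashed line at a ratio of 1. The 3 dpc16 libraries of zone 2 (1.99 to 3.58) lie above the line and the 6 others of zone 2 (0.185 to 0.754) below it.

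Over the 27 libraries the levels on the log2(FPKM + 1) scale followed each other in groups, given here as a description since the libraries share zones and stages. Glul correlated with Slc1a2 (Pearson r = 0.952), Rhbg (0.927) and Oat (0.886), and with Gls2 at -0.842. Got1 correlated with Gls2 at 0.819, and Glud1 with Gpt at 0.645. Of the genes outside the set, those most like Glul were Slc13a3 (0.95), a dicarboxylate transporter, Sp5 (0.936), a transcription factor induced by Wnt signalling, and Wnt9b (0.914), a Wnt ligand. The same 3 genes were most like Rhbg, at 0.934, 0.948 and 0.899. For Slc1a2 they were Lhpp (0.944), Rdh9 (0.927) and Gulo (0.917), and for Oat Lhpp (0.961), Cyp2c38 (0.96) and Cyp2e1 (0.955), the last a pericentral cytochrome P450. Gls2 was followed most closely by Aspg (0.965), an asparaginase, Hal (0.959), histidine ammonia-lyase, and Ctsc (0.957), and Got1 by the urea cycle genes Ass1 (0.906), Cps1 (0.897) and Asl (0.887). For Glud1 they were Hpd (0.949), Mettl7b (0.925) and Fcgrt (0.911), and for Gpt Selenbp1 (0.921), Nr3c1 (0.907) and Tasor (0.906).

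A list of 79 other genes of glutamine, glutamate, proline, urea and ammonia metabolism and transport, 70 of them tested, was compared in the same way. Zone 1 against zone 3 called 7 of 70 in NP (6 higher in zone 1, 10%), 5 at dpc8 (4 higher, 7.14%) and 12 at dpc16 (10 higher, 17.1%), against 1.34%, 1.61% and 1.55% of all genes. The median difference over the list was 0.24, 0.29 and 0.21 at the 3 stages, against 0.03, 0.08 and -0.02 over all genes. No call was made at any stage among 9 glutamine transporters, 13 aminotransferases, 11 glutamine-using enzymes and 5 genes of glutathione synthesis. Higher in zone 1 at all 3 stages were 4 of 9 genes that release ammonia from amino acids. These were Hal (6.27, 4.34 and 6.96 in NP, dpc8 and dpc16), Sds, serine dehydratase (7.10, 6.13 and 7.65), its relative Sdsl (2.69 and 4.18 at dpc8 and dpc16), which was listed at 0 in zone 3 of NP mice, and Aspg (4.42, 3.14 and 5.54). Hal and Sds are among the periportal markers used above to tell the zones apart, so that their calls, which count in the shares of the list, are no separate result. Aqp9, an aquaglyceroporin, was lower in zone 1 at all 3 stages (-1.82, -1.71 and -2.63).

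Against NP, 0 of 70 genes of this list were called at dpc8 in any zone by limma, with 4 of 210 tests at an unadjusted p under 0.05. At dpc16 6 calls were made in the 3 zones, all lower than in NP, which is 1.43%, 4.29% and 2.86% of the list in zones 1, 2 and 3 against 1.37%, 2.66% and 1.32% of all genes. Slc38a4, an amino acid transporter of the system A family, went from 452 to 114.5 FPKM in zone 2 (-2.05, adjusted p = 0.00353, limma) and from 352 to 74.9 FPKM in zone 3 (-2.29, adjusted p = 0.00136, limma). Prodh, proline dehydrogenase, was lower in zone 1 (-1.83, adjusted p = 0.0273, limma) and zone 2 (-2.27, adjusted p = 0.00353, limma). Cth, which cleaves cystathionine, was lower in zone 2 (-2.36, adjusted p = 0.00637, limma), and Ass1, argininosuccinate synthase, in zone 3 (-1.80, adjusted p = 0.0473, limma). In TPM 42 tests were called lower and 0 higher, but TPM also moved the median of all genes to -0.57, -0.195 and -0.21 in zones 1, 2 and 3. The share of all genes called in TPM was not computed. With the deposited FPKM the median over the list was -0.11, -0.18 and -0.13 in zones 1, 2 and 3, against -0.05, 0.04 and 0.015 over all genes.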

How the data were processed

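RNA of laser-dissected liver zones was sequenced in 27 libraries. The authors trimmed the reads (cutadapt), aligned them to mm10 (HISAT2 2.1.0) and computed FPKM of protein-coding GENCODE genes with Cuffdiff (Cufflinks 2.2.1). The deposited values are FPKM with no further scaling stated, and no counts are given. Low FPKM of genes with 1 transcript lay on whole multiples of a step (within 0.1) in 93.55% to 98.6% of cases, which gives estimated depths of 7.39 to 32.7 M reads. FPKM summed to 499866 to 988500 per library, and no 2 libraries were identical.

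Genes with at least 1 FPKM in at least 3 libraries (12952) were compared on log2(FPKM + 1) by limma (version 3.58.1, R 4.3.3), a scale that understates differences of low genes. The model held 1 mean for each of 9 groups over all 27 libraries, with eBayes trend and robust options. Two-sided p-values had Benjamini-Hochberg adjustment over all genes within each comparison (threshold 0.05). Limma was used because Cuffdiff needs reads. Groups and replicate numbers came from the sample titles. Same-numbered libraries of different zones deviated together at dpc16 (9 of 9 correlations over 0.1, from 0.263 to 0.863), but not throughout in NP (4 of 9) or dpc8 (5 of 9); its meaning is not given in the labels.

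The genes and lists were chosen with earlier results of these data known. Named are the 8 genes, for each the 3 genes most correlated with it, and, of the list, genes called between zones 1 and 3 at all 3 stages or called against NP; others, such as Otc, Aqp8 and Slc1a4, were named after their values were seen. Marker lists also covered hepatocytes, biliary epithelium, endothelium and Kupffer cells. Positions are from GENCODE vM21 (21806 identifiers matched), and promoters from RefSeq, matched by symbol (5 of 8). Alternatives were another constant (0.1), no filter, quantile normalization, only the groups compared, array weights, replicate blocks, leaving out libraries and, added after seeing the data, TPM and a connective tissue covariate. Python 3.11.15, pandas 2.3.3 and matplotlib 3.10.9 were used for summaries and plots.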

Additional observations from a re-analysis of the deposited data

How the results depend on the processing

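With groups of 3, no group was searched for outlying samples. Only 76 chosen single-gene differences were recomputed, not every test of the gene set, so that the counts say nothing of the tests left out. Under 10 other settings they gave 760 values, of which 692 kept their direction and their side of the threshold. Uncalled differences that stayed uncalled count among those kept. Of the 760 values, 24 lost a call, 44 gained one and 0 reversed. With 1 library left out, 424 of 474 values were kept, 46 lost a call, 1 gained one and 3 reversed. The reversed ones were Gpt between zones 1 and 3, at -0.12 in NP without zone 3 replicate 2 (range -0.12 to 0.62 with 1 library left out) and at 0.127 and 0.105 at dpc16 without zone 1 replicate 1 and zone 3 replicate 2 (range -0.29 to 0.13).

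The count of calls among the 8 genes was 3 between zones 1 and 2, against 0 in fits of only the groups compared, 6 with array weights, 5 under the replicate block with an estimated correlation and 5 in TPM. For dpc16 against NP it was 2, against 4 with quantile normalization, 0 in fits of only the groups compared, 5 with array weights, 8 in TPM and 5 with the connective tissue covariate. For dpc16 against dpc8 it was 3, against 1 with no filter, 0 in fits of only the groups compared, 7 with array weights, 5 without the libraries with Y-linked FPKM, 8 in TPM and 5 with the connective tissue covariate. For the list of 79 genes, zone 1 against zone 3 gave 24 calls, against 38 with array weights and 37 without the libraries with Y-linked FPKM, which also gave 1 call for dpc8 against NP in place of 0. For dpc16 against NP the list gave 6, against 12 with quantile normalization, 1 in fits of only the groups compared, 24 with array weights, 17 without the libraries with Y-linked FPKM, 42 in TPM and 26 with the connective tissue covariate. In fits of only the groups compared fewer libraries estimate the spread. For the other settings the cause was not tested. The shares of all genes called under these settings were not computed, so that the counts cannot be set against all genes.

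With 1 library left out, the counts for the 8 genes were 15 to 16 (zone 1 against zone 3), 1 to 3 (zone 1 against zone 2), 12 to 14 (zone 2 against zone 3), 0 to 0 (dpc8 against NP), 1 to 2 (dpc16 against NP), 2 to 3 (dpc16 against dpc8) and 0 to 0 (changes of a zone difference). For the list they were 21 to 25, 0 to 0 (dpc8 against NP) and 5 to 6 (dpc16 against NP). The replicate block as a term gave 16, 4, 15, 0, 2, 3 and 0 calls in the order of the 8-gene counts above, and both blocks called Oat between zones 2 and 3 in NP (-2.71, adjusted p = 0.00335 as a term), as 6 of the 8 other settings did.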

Other observations

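Urea cycle genes, which take up the ammonia that Gls2 releases, were called higher in zone 1 than in zone 3 at dpc16 for 4 of 5 members (1.55% of all genes): Cps1 (1134 against 169 FPKM, log2 difference 2.94), Otc (193 against 59.6, 1.67), Ass1 (1367 against 214, 2.80) and Asl (820 against 110, 2.96). In NP 1 of 5 was called (1.34% of all genes), Asl (748 against 189 FPKM, 1.96) by limma. At dpc8 Asl was 578 against 215 FPKM (1.49, adjusted p = 0.132, limma) and was not called. At dpc16 Aqp8, an aquaporin, was 53.6 against 1.10 FPKM (4.41), and Slc1a4, a neutral amino acid transporter, 0.0941 against 6.26 FPKM (-2.68). These genes were named after their values were seen, and the change of their zone differences between stages was called by limma in 0 of 210 tests of the list, 6 of them with an unadjusted p under 0.05.

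From dpc8 to dpc16, Hal (20.2 to 1.88 FPKM, -2.96), Aspg (13.2 to 0.649 FPKM, -3.09), Aqp8 (16.9 to 1.10 FPKM, -2.82) and Slc38a4 (327 to 74.9 FPKM, -2.21) were the 4 of 70 genes called lower in zone 3 (1.37% of all genes were called there in either direction). In zone 1 Prodh was called (52.7 to 15.1 FPKM, -1.76; 2.01% of all genes), and in zone 2 Prodh (72.2 to 12.2 FPKM, -2.37), Slc38a4 (392 to 114.5 FPKM, -1.83) and Cth (265 to 69.0 FPKM, -2.14) were (1.51% of all genes), all lower at dpc16. Whether the zones differ in this was not tested.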
